A study of Mus musculus with 18 samples.

Results

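Global CrossLinking Protein Purification (GCLiPP) maps the stretches of polyadenylated RNA that were crosslinked to any RNA-binding protein (RBP) in living cells. The mouse T cell peak list held 27729 peaks, each 70 nt wide, and the name of each began with a set label, most often main. The peaks described here were all those whose name began with cd8 or th2, namely 240 cd8 peaks and 107 th2 peaks, 347 in all or 1.25% of the list. They lay in 197 genes, of which 113 held only cd8 peaks, 64 only th2 peaks and 20 both. The other peaks were 25603 named main and 1762 named rapidmain, called pooled-set peaks below because they carry 1 running number from 1 to 27365, together with 13 named rapidcd8 and 4 named rapidth2. The cd8 and th2 peaks were numbered in lists of their own, up to 13440 and 14371. The sources used here do not define these labels, so cd8 and th2 were read as the cell type in which a peak was called, and the list gave no value per cell type or library with which to check this.

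The list came from 10 GCLiPP libraries of C57BL/6 T cells. CD4 cells were grown with IL-4, anti-IFN-γ and IL-2 into type 2 helper (Th2) cells, and CD8 T cells were grown with IL-12 and IL-2. Cell type and these culture additions therefore cannot be told apart in any CD8 against Th2 comparison. Both kinds of cell were started on plate-bound anti-CD3 and anti-CD28, then moved to uncoated dishes, over 5 days of culture in all. Cells were then left resting in fresh medium (3 Th2 and 2 CD8 libraries) or restimulated with PMA and ionomycin for 4 h (3 Th2 and 2 CD8 libraries) and crosslinked with 254 nm UV light. RNA-seq gave 8 further libraries, 1 for each combination of cell type, resting or stimulated state, and presence or absence of actinomycin D, an inhibitor of transcription. Cells of several mice were pooled per culture, and no combination was repeated, so the 4 CD8 libraries served as replicates of each other across conditions, as did the 4 Th2 libraries.

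RBPs bind the 3′ untranslated region (3′ UTR) of mRNA and set how long a transcript lasts, where it goes and how much protein it gives. In T cells, short-lived transcripts for cytokines, their receptors and transcription factors are known for such control, through AU-rich elements, Pumilio sites and stem-loops. CD8 T cells become cytotoxic cells under factors such as RUNX3, while Th2 cells, driven by GATA3, make IL-4, IL-5 and IL-13. The comparison made here asks how the cd8 and th2 peaks differ in strength and place, and whether the RNA of their genes was higher in the cell type of the name.

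The sequences show what the peaks look like. Coordinates are mm10, sequences are from the GENCODE M21 transcripts, all run 5′ to 3′ on the strand of the gene, and each is a window of 30 bases within a 70-nt peak. The first set is from peaks of cytokine genes and of the CD8 factor Runx3, all with RNA that differed between the cell types, with AU-rich ATTTA and T-rich TTTTTT in capitals.
Il21, cd8 peak, chr3:37224409-37224438: tctcctctcccacatcctttcctttctttc
Il21, cd8 peak, chr3:37224519-37224548: gaagtgcaaacctcactatcttctggagcc
Runx3, cd8 peak, chr4:135176474-135176503: caggccccagagcagactcatccggggtgg
Tnfsf8, th2 peak, chr4:63832606-63832635: actaaagaaaaatATTTAttttggctcata
Lif, th2 peak, chr11:4272429-4272458: tATTTAaaatATTTATTTTTTatactgaag

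The next set is from stretches that a cd8 peak and a th2 peak of the same gene shared, where both names point to the same bases.
Arf1, chr11:59211942-59211971: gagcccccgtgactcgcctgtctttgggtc
Ikzf1, chr11:11769815-11769844: agctgaggtttcccggatatgtggcttcct
Trim35, chr14:66311025-66311054: gctgtgtctcttgattttctgtcatatacc

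The last set shows words that set the prefixes apart or name a known site. ATTAAA, a variant of the polyadenylation signal, is in capitals in the first 3, and TGTANATA, the core of the Pumilio site, in the rest.
Srsf2, cd8 peak, chr11:116850188-116850217: gtccagtttATTAAAatgcctgacaactgc
Jak3, cd8 peak, chr8:71688277-71688306: cagaatggggatATTAAAtatgtgacccca
Arl6ip1, cd8 peak, chr7:118118903-118118932: taaaggggaaaaATTAAAaaccagttggaa
Arid1a, cd8 peak, chr4:133679487-133679516: gctgccacgtgTGTATATAtatgatgttgt
Pum2, th2 peak, chr12:8750407-8750436: atgtacagaatTGTATATActtataattgt
Tet3, th2 peak, chr6:83366124-83366153: gtgggagagacTGTAAATAgtagctgaata

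The cd8 and th2 peaks had low scores in genes whose highest pooled-set scores were high. The score of a peak in the list is a whole number with no stated unit, from 13 upward. The median was 17.5 for cd8 peaks (range 13 to 202) and 15 for th2 peaks (range 13 to 280), against 24 for the pooled-set peaks (13 to 22514). The lowest score of 13 was held by 15.8% of cd8 peaks, 29.0% of th2 peaks and 7.22% of pooled-set peaks. The genes that held these peaks were the reverse. The highest pooled-set score in a gene had a median of 283 for genes with cd8 peaks and 192.5 for genes with th2 peaks, against 33 over all genes with pooled-set peaks, and the median number of pooled-set peaks per gene was 6, 6 and 2. Peaks are not replicates and the list gives no value per library, so these differences were not tested. The sources do not state whether a cd8 or th2 score counts only reads of its own cell type. If so, it rests on fewer libraries than a score over all of them, and the scores are not like measures. The scores are not divided by the RNA of the gene. Median RNA was 5127 normalised reads for the tested genes of these peaks and 1715 for those with pooled-set peaks only. The part of RNA level in the high scores was not tested.

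**Figure D1:**
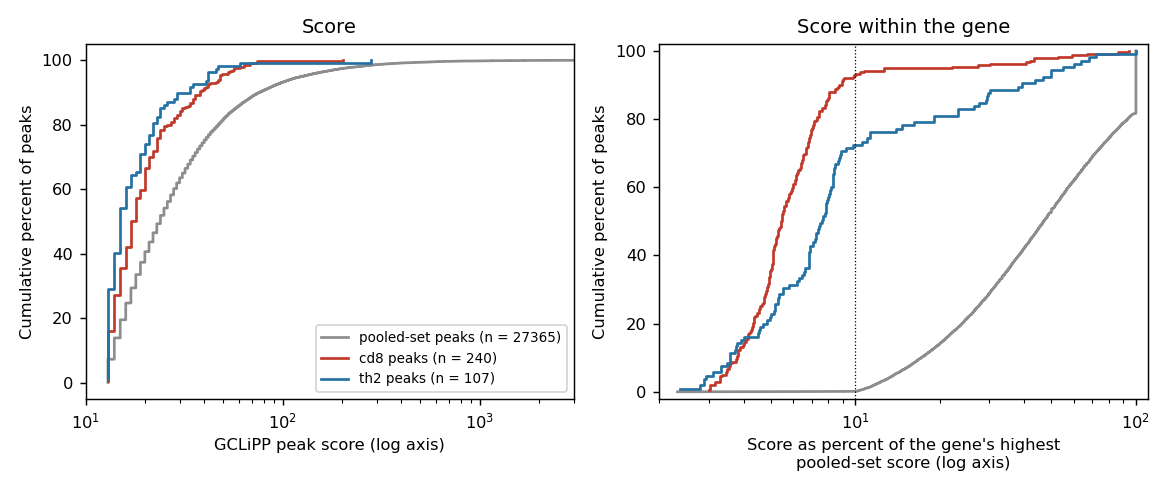
Cumulative percent of peaks by score (left, log axis) and by score as a percent of the highest pooled-set score in the same gene (right, log axis, dotted line at 10%), for 240 cd8 peaks in red, 107 th2 peaks in blue and 27365 pooled-set peaks in grey (right: 238, 105 and 25129 peaks, pooled-set peaks only from genes with more than 1). Of the peaks in the right panel, 221 cd8 peaks, 76 th2 peaks and 29 pooled-set peaks lie under 10%.

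Set against its own gene, the score of a cd8 or th2 peak was mostly a small fraction of the highest pooled-set score. These fractions carry the same limit, since the scores of the sets may count reads of different libraries. The median was 5.45% of the gene's highest pooled-set score for cd8 peaks and 7.59% for th2 peaks, against 46.9% for pooled-set peaks of genes with more than 1. Among the pooled-set peaks of the same genes the median was 21.2% for genes with cd8 peaks and 23.5% for genes with th2 peaks. Under 10% were 221 of 238 cd8 peaks (92.9%), 76 of 105 th2 peaks (72.4%) and 29 of 25129 pooled-set peaks (0.115%), of which 19 were among the 1577 in the same genes. Their score was below that of every pooled-set peak of the gene for 230 of 238 cd8 peaks and 89 of 105 th2 peaks. Peak calling by the authors required a read depth above a set share of the maximum in the 3′ UTR, and whether that threshold shaped these sets was not tested. The prefixes parted here, since 17 cd8 and 29 th2 peaks reached 10% or more of the top score. For these peaks the highest pooled-set score of the gene had a median of 36 and 47, against 335 and 288 for the other cd8 and th2 peaks. Since no score was under 13, a peak can only fall under 10% in a gene with a high top score. The extremes were Polr2g, a subunit of RNA polymerase II, whose th2 peak and single pooled-set peak both scored 13, and Utp11l, whose cd8 peak scored 16 beside a single pooled-set peak of 17.

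None of the 347 peaks overlapped a pooled-set peak of the same gene. The nearest pooled-set peak lay at least 70 nt away, centre to centre, which is the width of a peak, with a median of 153 nt for cd8 peaks and 134 nt for th2 peaks. Among neighbouring pooled-set peaks of a gene, 31.4% overlapped. Whether the list kept cd8 and th2 peaks only where no pooled-set peak lay is not stated, and this was not tested. Overlaps among the cd8 and th2 peaks themselves did occur. Of the cd8 peaks, 32 overlapped another peak of the gene, 26 of them a cd8 peak and 6 a th2 peak, and of the th2 peaks 10 did, 6 with a cd8 peak and 4 with a th2 peak. With an overlap of at least 50% of the peak required, 5 and 5 remained. Scores above that of the nearest pooled-set peak were found for Epn1 among the cd8 peaks (24 against 16) and for Trim35 (18 against 14) and Arl8b (14 against 13) among the th2 peaks. Only 4 genes held no pooled-set peak at all, namely Hist1h1a and Pus7 with a cd8 peak and Ppil3 and Thap7 with a th2 peak.

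**Figure D2:**
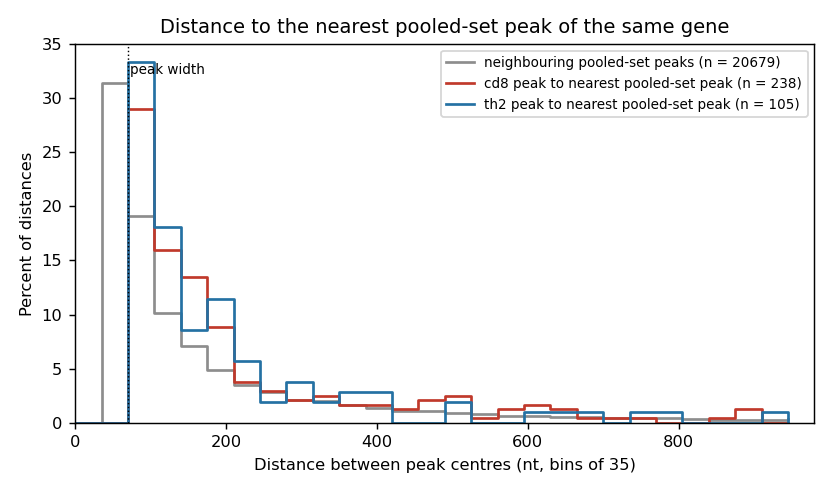
Distances in nt between peak centres (x axis, bins of 35 nt) as a percent of distances (y axis) for neighbouring pooled-set peaks of a gene (grey) and from each cd8 (red) or th2 (blue) peak to the nearest pooled-set peak. Of the distances plotted, those under the peak width of 70 nt, the dotted line, are all between pooled-set peaks.

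Both prefixes marked the same gene in 20 genes, which is 15.0% of the genes with cd8 peaks and 23.8% of those with th2 peaks. The closest cd8 and th2 peaks of these genes overlapped in 6. Arf1, a GTPase of vesicle budding, shared 59 of 70 bases between a cd8 peak of score 17 and a th2 peak of score 19. Ikzf1, which encodes the lymphocyte factor Ikaros, shared 58 bases (scores 19 and 15), and Ccl3, a chemokine, 56 bases (scores 18 and 15). Trim35, Myh9 and Rnf149 shared 38, 35 and 31 bases. In these 6 genes a cd8 and a th2 name therefore covered partly the same RNA. In the other 14 genes the closest pair lay 73 to 2130 nt apart, and over all 20 the median distance was 246.5 nt. The th2 peak of the closest pair had the higher score in 14 genes and the cd8 peak in 5. Th2 cells had 3 GCLiPP libraries per state and CD8 cells 2, and the part of this in the scores was not tested.

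Several genes carried a run of such peaks beside higher pooled-set peaks. Cdkn1a, which encodes the cell cycle inhibitor p21, held 9 th2 peaks over 1198 nt with scores of 28 to 61, beside 3 pooled-set peaks of which the highest scored 1179. Its th2 peaks thus stood at 2.37% to 5.17% of that highest score. Il2ra, the α subunit of the IL-2 receptor, held 8 cd8 peaks with scores of 35 to 48 among 28 pooled-set peaks that reached 846. Pou2f2, which encodes the octamer factor OCT2, held 7 cd8 peaks (14 to 23) among 20 pooled-set peaks that reached 295, and Mbnl1, an RBP of splicing and mRNA localisation, held 6 th2 peaks (14 to 35). Irf4, a factor of activated lymphocytes, held 5 cd8 peaks (21 to 34), and Icos, a costimulatory receptor, 4 (21 to 36). Genes with 4 or more peaks of a prefix numbered 17 of 133 for cd8 and 3 of 84 for th2, so peaks of such genes share a target and are not independent.

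**Figure D3:**
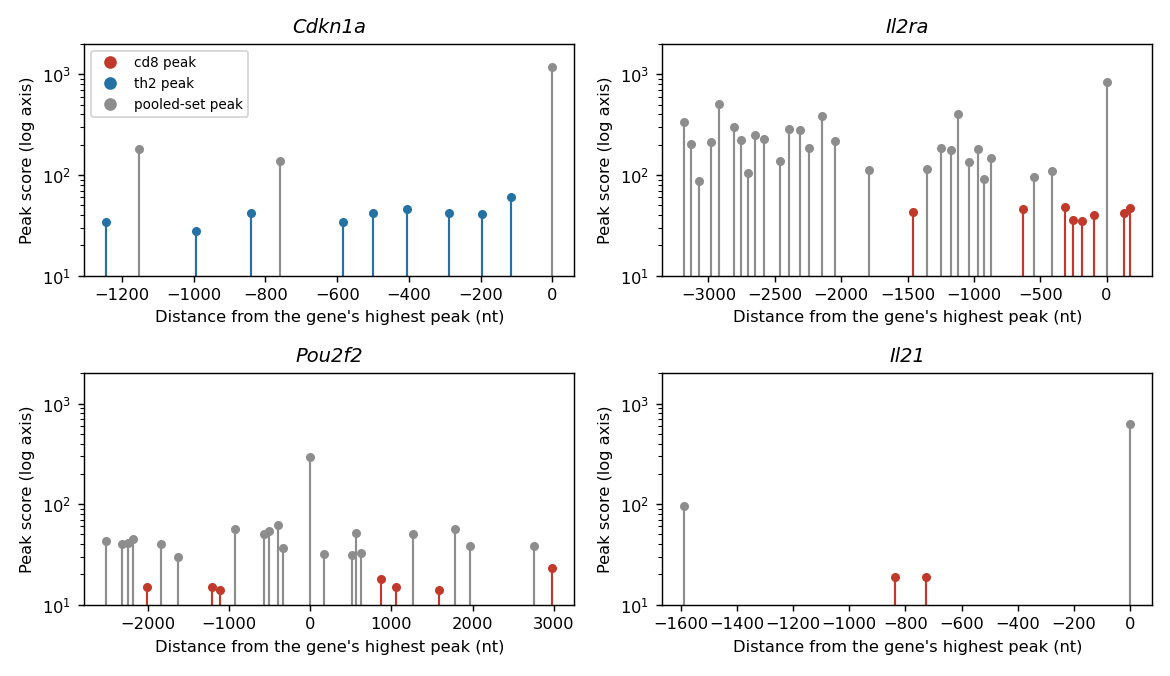
Score (y axis, log) of each cd8 (red), th2 (blue) and pooled-set (grey) peak of Cdkn1a, Il2ra, Pou2f2 and Il21 against its distance in nt from the highest peak of the gene (x axis, in the direction of transcription). The 9 th2 peaks of Cdkn1a score 28 to 61 beside a main peak of 1179, and both cd8 peaks of Il21 score 19 beside one of 624.

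The highest scores of both prefixes came from 1 gene. Lrrc58, a leucine-rich repeat gene, held a cd8 peak of 202 at chr16:37883464-37883533 and a th2 peak of 280 at chr16:37883014-37883083, both in its annotated 3′ UTR. The next scores were 74 for cd8 (Srsf2) and 61 for th2 (Cdkn1a). A search of the GENCODE M21 transcripts found the 70 bases of the cd8 peak in the Actb mRNA, which encodes β-actin, with 69 identical bases, and those of the th2 peak with 64. The search allowed no gaps, and the first bases of the th2 pair also match when shifted against each other. A gapped comparison was not made, so the count of 6 may overstate the differences there. The stretches that hold all the ungapped differences, 1 and 6 bases, are shown with the Actb bases, differences in capitals.
Lrrc58, cd8 peak, chr16:37883504-37883533: tcctgagcgcaagtactctgtgtggatcgA
Actb mRNA: tcctgagcgcaagtactctgtgtggatcgG
Lrrc58, th2 peak, chr16:37883014-37883043: CTAtGCTctctccctcacgccatcctgcgt
Actb mRNA: GGCtATGctctccctcacgccatcctgcgt
All 6 pooled-set peaks of Lrrc58 also had a transcript copy with at least 60 identical bases, 4 of them nearest to Actb. The RNA of Lrrc58 was between 1139 and 2939 normalised reads in the CD8 libraries and 1166 to 1817 in the Th2 libraries, while Actb averaged 60502 over the 8 libraries. Reads from Actb and from this stretch of Lrrc58 may not be told apart at such identity, so both scores are uncertain. Such copies were not a general feature, since 4 of 227 cd8 peaks with sequence (1.76%), 2 of 105 th2 peaks (1.90%) and 2.65% of pooled-set peaks had one. The others were 2 cd8 peaks of the splicing factor Srsf3 (70 of 70 bases in Gm12355) and the cd8 and th2 peaks of Capza1, an actin-capping protein (69 bases in Gm3608).

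After Lrrc58, the cd8 peaks of highest score fell in Srsf2 (74), a splicing factor, Ap2s1 (64), a clathrin adaptor subunit, Calm3 (61), a calmodulin, Pim1 (57), a survival kinase, Pebp1 (54), a RAF kinase inhibitor, Hnrnpa1 (53), an mRNA-packaging protein, Actg1 (49), γ-actin, and, at 48 each, Il2rb, the β subunit of the IL-2 receptor, Il2ra and Arl6ip1. The th2 peaks of highest score after Lrrc58 and Cdkn1a fell in Pabpn1 (47), the nuclear poly(A)-binding protein, Mbnl1 (35), Prps2 (29), an enzyme of nucleotide synthesis, Capza1 (29), Pum2 (25), a Pumilio protein, Clic4 (24), and Irak4 and Nf2 (23 each). Actg1 was listed at 0.993 to 131 normalised reads and was not tested, although its highest pooled-set peak scored 1100.

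Most peaks of either prefix lay in 3′ UTRs, and th2 peaks more often touched coding sequence, a difference that was not tested. Of the cd8 peaks, 219 of 240 (91.2%) lay wholly in an annotated 3′ UTR, as did 91 of 107 th2 peaks (85.0%) and 90.2% of pooled-set peaks. Peaks in or across the edge of coding sequence were 8 cd8 peaks (3.33%) and 14 th2 peaks (13.1%), against 4.57% of pooled-set peaks and 2.19% and 1.52% of those in the genes with cd8 and th2 peaks. The 14 th2 peaks included ones in Cd3e, a subunit of the T cell receptor complex, Irak4, a kinase of Toll-like receptor signalling, Myh9, a non-muscle myosin, and Phb2, a prohibitin, and the 8 cd8 peaks 1 in Pdcd1, the inhibitory receptor PD-1. Within 3′ UTRs the median centre lay 766 nt past the stop codon for cd8 peaks and 886 nt for th2 peaks, against 611 nt for pooled-set peaks. Pooled-set peaks of the same genes lay farther out, at 918.5 nt for genes with cd8 peaks and 958.5 nt for genes with th2 peaks. No exon held 13 cd8 and 2 th2 peaks whole, among them the th2 peak of Pabpn1, so these have no sequence here.

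Each peak was searched on its own strand for known words. The polyadenylation signals were AATAAA and its variant ATTAAA. AU-rich ATTTA, U-rich TTTTTT, C-rich CCCCCC, the CELF-like word TGTTTG and the Pumilio core TGTANATA were the others, and none of the words contains another. ATTAAA stood in 16 of 227 cd8 peaks (7.05%) from 15 genes, in 1 of 105 th2 peaks (0.952%), that of Ppp2r2a, and in 2.99% of pooled-set peaks (2.76% of those in the genes with cd8 peaks). Of the 16, 2 lay within 60 nt of the transcript end. The canonical signal AATAAA did not part the prefixes, at 7.05% of cd8, 5.71% of th2 and 6.56% of pooled-set peaks. ATTTA was in 10.6%, 8.57% and 7.87%, TTTTTT in 6.17%, 6.67% and 4.93%, CCCCCC in 1.76%, 1.90% and 1.65%, and TGTTTG in 2.64%, 6.67% and 4.08%. The Pumilio core TGTANATA was found in 3 peaks, 1 cd8 peak (0.441%) and 2 th2 peaks (1.90%), against 1.73% of pooled-set peaks, and 1 of the 3 was in Pum2, which itself encodes a Pumilio protein. In Lif, ATTTA directly precedes TTTTTT. Median GC content was 44.3% for cd8 peaks and 48.6% for th2 peaks and pooled-set peaks alike. A match says only that the letters are there, and no count here was tested.

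The RNA-seq libraries held 24154849 to 31042504 gene reads, and marker genes followed their labels with 1 exception. Of the CD8 markers Cd8a, Cd8b1, Runx3, Eomes, Prf1, Gzmb, Nkg7 and Crtam, 5 of 8 were higher in CD8 cells and none in Th2 cells, and of the Th2 markers Cd4, Zbtb7b, Gata3, Il4, Il5, Il13, Il1rl1 and Ccr8, 6 were higher in Th2 cells and 1, Il1rl1, in CD8 cells. Cd8a averaged 13603 normalised reads in the CD8 and 1827 in the Th2 libraries, and Cd4 92.8 and 29577. The 5 B cell markers summed to 35.4 to 79.4 reads in CD8 libraries and 617 to 879 in Th2 libraries, and the part of this or of residual Cd8a in the differences below was not tested. In bulk samples, fewer cells of a type and less RNA per cell cannot be told apart.

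The genes of these peaks were well expressed, and in the main test the prefix did not clearly follow the cell type with more RNA. Of the 197 genes, 196 were in the RNA table and 194 passed the minimum mean of 50 normalised reads, the exceptions being D17H6S56E-5 (unmatched), Hist1h1a and Actg1. Their median RNA was 5127 normalised reads against 964 over the 10972 genes tested. By limma with an adjusted p under 0.05, 9.97% of all genes tested were higher in CD8 cells and 11.5% in Th2 cells. Of the 111 tested genes with cd8 peaks only, 12 (10.8%) were higher in CD8 cells and 13 (11.7%) in Th2 cells. Of the 63 with th2 peaks only, 5 (7.94%) were higher in CD8 cells and 10 (15.9%) in Th2 cells. Of the 20 with both, 2 were higher in each. Among the 6288 tested genes with pooled-set peaks only, 8.83% were higher in CD8 and 10.4% in Th2 cells. Most of the shares are near these backgrounds, and 150 of the 194 genes did not pass. The 15.9% of th2-only genes rests on 10 genes, and it was not tested against either background. Leaving out the stimulated CD8 library with actinomycin D brought the 12 down to 4, and leaving out either resting CD8 library brought the 5 down to 0. Every CD8 library was above every Th2 library for 8 of the 111 and 1 of the 63 genes (7.36% of all genes tested), and every Th2 library above every CD8 library for 6 and 5 (8.6% of all genes tested). The median CD8 minus Th2 difference on the log2(value + 1) scale was 0.06 for genes with cd8 peaks only, -0.05 for th2 only and 0.14 for both, against 0.02 over all genes tested.

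When each CD8 library was set against the Th2 library of its own state and treatment, more genes passed on the side of the prefix than on the other. With these matched conditions as a block in limma, 30 of 111 genes with cd8 peaks only (27.0%) were higher in CD8 cells and 15 (13.5%) in Th2 cells, against 18.1% and 18.7% of all genes tested. Of the 63 genes with th2 peaks only, 8 (12.7%) were higher in CD8 cells and 15 (23.8%) in Th2 cells. The CD8 library was the higher in all 4 conditions for 36 of the 111 (32.4%) and 13 of the 63 (20.6%), against 26.6% of all genes, and the Th2 library for 22 (19.8%) and 21 (33.3%), against 26.4%. The 4 libraries without actinomycin D did not show this for cd8-only genes, with 2 (1.80%) higher in CD8 and 6 (5.41%) in Th2 cells, against 4.52% and 6.3% of all genes tested. For th2-only genes the counts there were 0 and 6 (9.52%). In the 4 libraries with actinomycin D they were 35 (31.5%) and 28 (25.2%) for cd8-only genes and 9 (14.3%) and 23 (36.5%) for th2-only genes, against 28.1% and 27.5% of all genes tested. Each of these fits leaves 1 residual degree of freedom per gene. The differences were small in size, since the condition medians of the cd8-only genes lay between 0.00 and 0.12 on the log2 scale and those of the th2-only genes between -0.13 and 0.01. Whether the counts exceed those of other genes of like expression was not tested.

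**Figure D4:**
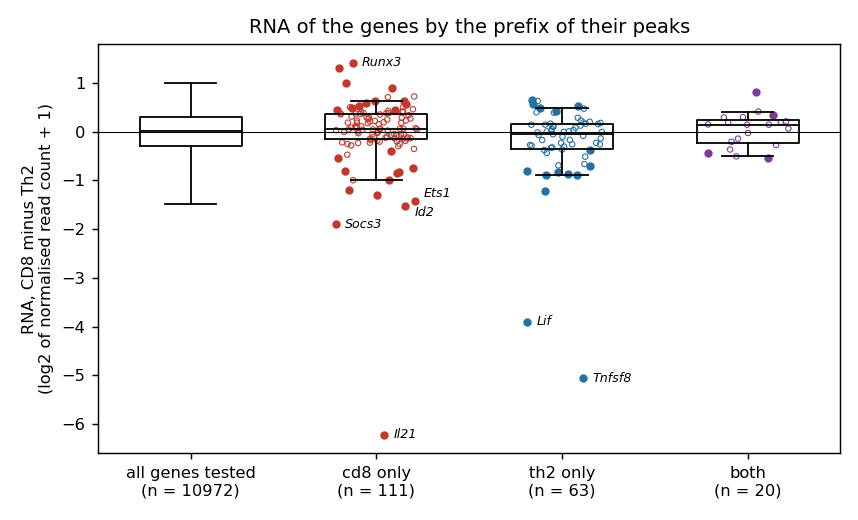
CD8 minus Th2 difference in RNA (y axis, log2 of normalised read count + 1, limma over 8 libraries) for all 10972 genes tested and for the 111, 63 and 20 tested genes with cd8 peaks only, th2 peaks only and both. Boxes give the quartiles and median, whiskers the 5th and 95th percentiles, and filled points the genes with adjusted p under 0.05, among which Il21 at -6.22 is a gene with cd8 peaks.

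Cytokine genes gave the largest differences, and both prefixes were among them. Il21, a cytokine of helper T cells, held cd8 peaks only, at chr3:37224389-37224458 and chr3:37224499-37224568. Its RNA was 56.0 normalised reads in resting CD8 cells, 596 in stimulated CD8 cells, 18.7 in resting CD8 cells with actinomycin D and 55.6 in stimulated CD8 cells with actinomycin D. In the Th2 libraries in the same order it was 2015, 30141, 2586 and 7405. Every Th2 library was above every CD8 library, with a CD8 minus Th2 difference of -6.22 ± 0.51 (SE) on the log2 scale, or 74.4-fold higher in Th2 cells (limma, adjusted p = 0.000156). The gene that differed most among all 194 therefore carried the name of the cell type with less of its RNA. Both cd8 peaks scored 19, and the pooled-set peaks of Il21 scored 624 and 96.

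Tnfsf8, which encodes the TNF family ligand CD30L, held th2 peaks of score 20 and 21. Its RNA in CD8 cells was 263 resting, 1139 stimulated, 266 resting with actinomycin D and 227 stimulated with actinomycin D. In Th2 cells it was 7119, 66095, 6161 and 7666. The groups did not overlap, with a difference of -5.05 ± 0.52 (limma, adjusted p = 0.000503). Lif, an IL-6 family cytokine, held 1 th2 peak of score 21 whose centre lay 52 nt before the transcript end. In CD8 cells its RNA was 396, 5319, 2141 and 3355 in that order, and in Th2 cells 17561, 61841, 15861 and 43067. Again every Th2 library was above every CD8 library, by 14.9-fold (-3.89 ± 0.48, limma, adjusted p = 0.00122). For Tnfsf8 and Lif the prefix and the RNA pointed to the same cell type.

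Transcription factors and signalling genes with cd8 peaks went both ways. Runx3, the defining factor of the CD8 lineage, held cd8 peaks of score 32 and 33. Its RNA was 7138, 7615, 3645 and 3356 in the CD8 libraries and 2913, 2348, 1378 and 1393 in the Th2 libraries, in the order above. All CD8 libraries were higher, by 2.67-fold (1.42 ± 0.12, limma, adjusted p = 0.000156). Socs3, a feedback inhibitor of cytokine signalling with a cd8 peak of score 15, went the other way, at 300, 499, 811 and 958 in CD8 and 1859, 2831, 2164 and 1977 in Th2 libraries (-1.90 ± 0.29, limma, adjusted p = 0.00348). Ets1, a lymphocyte factor with a cd8 peak of score 13, had 7030 to 13615 reads in CD8 libraries and 18720 to 30273 in Th2 libraries (-1.41 ± 0.17, limma, adjusted p = 0.00106). Id2, an inhibitor of E proteins with a cd8 peak of score 23, ranged from 726 to 8550 in CD8 and 1672 to 20720 in Th2 libraries. These ranges of Id2 overlapped across conditions, but Th2 was the higher in all 4 (-1.52 ± 0.17, limma, adjusted p = 0.000637).

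**Figure D5:**
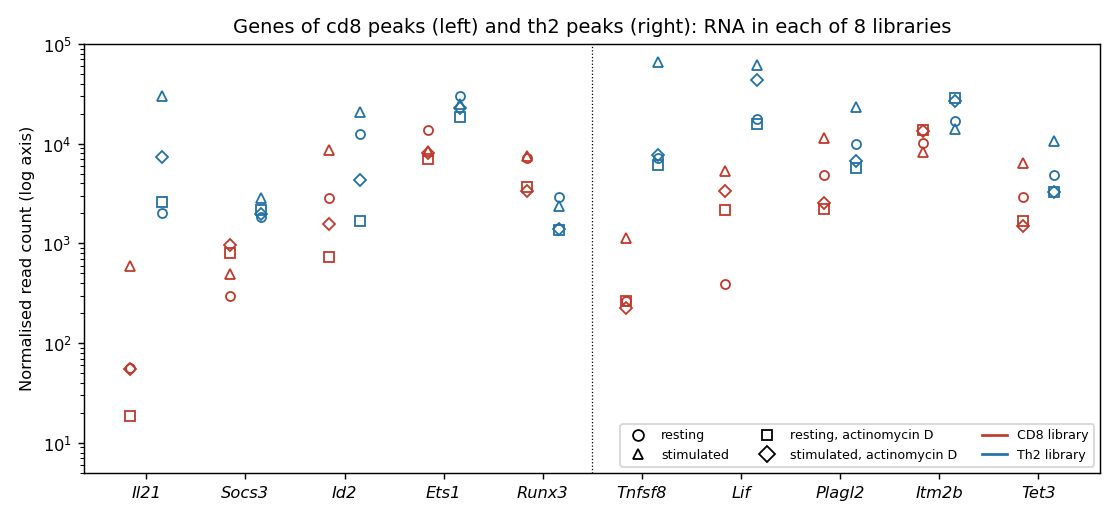
Normalised read count (y axis, log) in each of the 4 CD8 libraries (red) and 4 Th2 libraries (blue) for the 5 genes of largest cell type difference with cd8 peaks (left of the dotted line) and with th2 peaks (right). Symbols give resting or stimulated cells with and without actinomycin D, and only Runx3 is higher in the CD8 libraries.

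The remaining genes of largest difference with th2 peaks were all higher in Th2 cells. Plagl2, a zinc finger factor with a th2 peak of score 13, ranged from 2198 to 11293 in CD8 and 5652 to 23487 in Th2 libraries (-1.21 ± 0.21, limma, adjusted p = 0.0061). Itm2b, a membrane protein with a th2 peak of score 16, ranged from 8198 to 13777 and 13884 to 28465, without overlap (-0.90 ± 0.11, limma, adjusted p = 0.00131). Tet3, a dioxygenase of DNA demethylation whose th2 peak of score 13 holds the Pumilio core shown above, ranged from 1510 to 6401 and 3255 to 10621 (-0.89 ± 0.25, limma, adjusted p = 0.043). Tet3 lost the call without 5 of the 8 libraries in turn, where its adjusted p rose to as much as 0.129.

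The genes of highest score mostly did not differ by cell type. Of the 10 top-scored cd8 genes that could be tested, Srsf2 (0.44 ± 0.12, limma, adjusted p = 0.0382) and Il2rb (0.62 ± 0.15, limma, adjusted p = 0.026) were higher in CD8 cells and 8 did not pass. Il2rb was at 33957 to 54443 in the CD8 and 23650 to 28237 in the Th2 libraries, without overlap. Il2ra, with its 8 cd8 peaks, was at 136730 to 205740 in CD8 and 115460 to 173850 in Th2 libraries, a difference of 0.07 ± 0.14 on the log2 scale. Of the 10 top-scored th2 genes, Nf2, the Merlin tumour suppressor, was higher in Th2 cells (-0.43 ± 0.12, limma, adjusted p = 0.04), and it also held 2 cd8 peaks. Cdkn1a, with its 9 th2 peaks, was at 2954 to 24103 in CD8 and 3716 to 13367 in Th2 libraries, a difference of 0.12 ± 0.23.

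Other genes on the side of their prefix were H2afy, a histone variant (1.31 ± 0.10), Ccnd3, cyclin D3 (0.99 ± 0.23), and Slc7a5, an amino acid transporter (0.90 ± 0.15), each with cd8 peaks and more RNA in CD8 cells. On the opposite side were Irf4 (-1.29 ± 0.29), Rbpj, the effector of Notch (-0.99 ± 0.13), Jak3, a kinase of cytokine receptors (-0.86 ± 0.20), and Gfi1, a transcriptional repressor (-0.83 ± 0.22), all with cd8 peaks and more RNA in Th2 cells. Ncl, nucleolin, held a th2 peak with more RNA in CD8 cells (0.65 ± 0.15). All 8 passed in limma with an adjusted p of 0.0332 or less. They were chosen after their values were seen.

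Over all genes tested, 131 (1.19%) held a cd8 peak and 83 (0.756%) a th2 peak. Of 18 CD8 lineage and effector genes, 9 of 17 tested were higher in CD8 cells and 3 in Th2 cells (median 1.64), led by Ifng (6.18) and Gzmk (5.95). The 3 higher in Th2 cells were Itgae (-3.12), Gzma (-2.62) and Cst7 (-1.46). In this list Runx3 alone held a cd8 peak and none a th2 peak. Of 20 CD4 and Th2 lineage genes, 12 of 19 tested were higher in Th2 cells and 1 in CD8 cells (median -2.59), led by Il13 (-8.22) and Il4 (-7.63). None of the 20 held a th2 peak, while Gfi1, Icos and Il2ra held cd8 peaks. Gfi1 was higher in Th2 cells (-0.83), but Icos (0.71) and Il2ra (0.07) did not pass. Of 14 T cell receptor and coreceptor genes, 6 were higher in Th2 and 2 in CD8 cells, led by Cd4 (-9.04) and Cd8a (2.93), and Cd3e held a th2 peak. None of 12 proximal kinases and adaptors passed, and Grap2 held cd8 peaks. Of 24 RBPs of 3′ UTRs, 3 of 23 tested were higher in CD8 and 1 in Th2 cells, led by Igf2bp2 (2.77) and Zfp36l1 (-0.96). Cd8 peaks lay in Celf2 and Pum2 and th2 peaks in Pcbp2, Ptbp1 and Pum2. The values in parentheses for these lists are CD8 minus Th2 differences on the log2 scale from limma. The counts are read against the backgrounds of 9.97% and 11.5% given above.

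Genes of both prefixes changed with actinomycin D and with stimulation. With actinomycin D, 61 of the 194 genes (31.4%) fell and 31 rose, against 21.9% and 16.8% of all genes tested (limma, adjusted p under 0.05). The 194 genes had more RNA, with a median of 5127 normalised reads against 964. Whether these shares, or those for stimulation below, exceed those of genes of like expression was not tested. Values were scaled per library, and the median change over all genes tested was 0.0015 on the log2 scale. A rise or fall is therefore relative to the other transcripts, and a loss common to all would not show. Among genes with cd8 peaks only, 35 of 111 fell and 15 rose, and among those with th2 peaks only, 20 of 63 fell and 14 rose. Rgs1, a brake on G protein signalling with 1 th2 peak, fell by 3.68 ± 0.46 on the log2 scale, the most of these genes. Rgs16, a related brake with 2 cd8 peaks, fell by 3.65 ± 0.67. Man2a2, a Golgi mannosidase with 1 th2 peak, rose most (1.10 ± 0.13). Over all 8 libraries, stimulation changed none of the 194 genes in limma (42 at an unadjusted p under 0.05), where 0.118% of all genes rose and 0.0% fell. In the 4 libraries without actinomycin D, 26 rose and 5 fell, against 6.59% and 4.69% of all genes. The largest rises there were in Ccl3 (6.79 ± 0.71), which held overlapping cd8 and th2 peaks, Rgs16 (5.57 ± 0.23) and Il21 (3.65 ± 0.19). The difference between cell types in the stimulation change and in the actinomycin change passed for none of the 194 genes in limma, with 0 and 7 at an unadjusted p under 0.05 and 0.0% of all genes called. Over all 10972 genes tested, only 27 and 447 had an unadjusted p under 0.05. These fits, with no combination repeated, therefore cannot say whether the 2 cell types responded alike.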

How the data were processed

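The authors aligned GCLiPP reads to mm10 with Bowtie2, removed duplicates by a random linker sequence, pooled experiments and called 70-nt peaks against a normal curve along 3′ UTRs. They deposited 1 peak list whose score column holds whole numbers of no stated unit. RNA-seq reads were aligned with STAR, and the deposited table holds a normalised read signal, which is each gene's count scaled by a factor common to the library. The study's methods name fragments per kilobase, but all values in every library were whole multiples of 1 step within 0.01, so whole reads could be taken from them. For stimulated CD8 cells with actinomycin D the step was so near 1 that scaled values and reads nearly coincide, and the planned count tests left this library out. A second deposited table, which adds the authors' own fold changes, was not used.

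Sets were taken from peak names, and genes were matched by symbol. Positions, words and copies came from GENCODE M21 (copies: ungapped, sense strand, sharing 16 consecutive bases, at least 60 of 70 identical). RNA was tested with limma 3.58.1 (trend) in R 4.3.3 on log2(value + 1), for genes with a mean of at least 50, with terms for cell type, stimulation and actinomycin D and Benjamini-Hochberg adjustment over 10972 genes. The actinomycin term was fitted with the 4 treated and untreated pairs as a block. The pseudocount understates changes of low genes. With 1 library per combination, p-values measure only the spread between these libraries. edgeR 4.0.16 and DESeq2 1.42.0 on the recovered reads were alternatives, on 7 libraries and, added after seeing the data, on all 8. Named genes were, per prefix, the 10 of highest score with ties and the 5 past the threshold with the largest cell type difference; others are named as extremes or list members. The peaks, lists and tests were chosen with earlier results of these data known. Some genes are not reported here.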

Additional observations from a re-analysis of the deposited data

How the results depend on the processing

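No paired analysis was possible because the GCLiPP experiment numbers, which are the replicate numbers in the labels, have no values per library in the pooled list. RNA-seq libraries carry none and were blocked only by shared condition. The counts of genes by cell type, for cd8-only genes 12 higher in CD8 and 13 in Th2 cells and for th2-only genes 5 and 10, moved with the libraries and the model. On all 8 libraries, an alternative chosen after seeing the data, they were 11, 13, 5 and 11 with edgeR and 18, 13, 6 and 13 with DESeq2. Without stimulated CD8 with actinomycin D, edgeR gave 3, 7 and 1 for the first 3, and DESeq2 gave 10, 10, 4 and 8. They were 30 and 8 for those higher in CD8 cells with matched conditions as a block, 35, 28, 9 and 23 in the 4 libraries with actinomycin D only, and 2, 6, 0 and 6 in the 4 without. Leaving out 1 library at a time gave 4 to 15, 7 to 12, 0 to 5 and 8 to 12. Those behind shifts of over 1.5 times were, for the count of 12, stimulated CD8 with actinomycin D (4), resting CD8 with (5) and without it (6), and resting and stimulated Th2 with it (7 each). For the count of 13 they were stimulated CD8 and resting Th2 with actinomycin D (7 each) and resting CD8 without it (8), and for the count of 5 every library but stimulated Th2 without actinomycin D (0 to 3). The cause was not tested. Stimulation calls went from 0 to 31 of the 194 genes in the libraries without actinomycin D, and to 1 without the stimulated Th2 library without actinomycin D. With single libraries left out, rises with actinomycin D, 31 in all, ranged from 9 to 34, with 9 and 10 without the resting Th2 libraries with and without the drug and 14 to 16 without any single CD8 library. Falls, 61 in all, ranged from 40 to 56, with 40 without either stimulated CD8 library. The median score of cd8 peaks was 35.5 over those at or above the list median, and overlaps fell to 5 of 240 and 5 of 107 when at least 50% overlap was required. Il21, Socs3, Id2, Runx3, Ets1, Tnfsf8, Lif, Plagl2 and Itm2b kept direction and call under all 20 alternatives, and Tet3 lost its call under 7, with adjusted p from 0.0591 to 0.129. Among the 20, median-of-ratios size factors could change next to nothing, since the factor was 1.0095 in every library. The named genes were also chosen for large differences in these same libraries. Over all genes the cell type calls were 1094 and 1264, against 936 and 1335 with edgeR on 8 libraries, 563 and 873 with edgeR on 7, 1379 and 2141 with no minimum, 496 and 691 without actinomycin D, 3088 and 3020 with it, and 1990 and 2047 with the block. No interval can be given for a score, since the list holds no depth.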
